A study of Mus musculus with 48 samples.

Results

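Macrophages and dendritic cells of the islet were followed through 32 of their genes in α and β cells sorted from mouse islets with and without β cell ablation. The genes were chosen by name, as myeloid and MHC class II genes that report immune cells carried along in a sorted fraction, and all 32 were present among the 42713 gene entries of both deposited tables. Every mouse carried ProGcg-Venus, a fluorescent reporter that marks α cells, RIP-Cherry, a reporter that marks β cells, the clock reporter PER2::Luc, and the pair Insulin-rtTA and TET-DTA, through which doxycycline turns on diphtheria toxin A in cells that use the insulin promoter. The mice were male and 6 to 8 weeks old. In the DOX group they drank water with 300 mg doxycycline and 2% sucrose, and in the CTR group water with 2% sucrose alone, so the toxin transgenes were present in both groups. No group received the drug without the toxin transgenes, and an effect of the drug and an effect of the ablation cannot be told apart. All mice lived in 12 h of light and 12 h of dark with food at night from 10 days before, some of them on inverted cycles for 2 weeks, and islet cells were sorted by reporter colour, singlet gate, size and viability at zeitgeber times (ZT, hours after lights on) 0, 4, 8, 12, 16 and 20. Each of the 4 conditions, DOX β, CTR β, DOX α and CTR α, had 12 libraries, 2 at each time. Whether the 2 libraries of a time are separate animals is not labelled, and p-values here cover the spread between libraries, which may be technical.

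Resident macrophages sit inside the islet close to its capillaries and touch endocrine cells, and they take up material that these cells release or leave behind when they die. Phagocytes show protein fragments to T cells on MHC class II, a dimer that is assembled on the invariant chain and is switched on by the transactivator CIITA, which is held at class II promoters by factors bound to short conserved boxes. Macrophage identity depends on the ETS factor PU.1, the product of Spi1, and on the growth factor receptor encoded by Csf1r, and mature macrophages of many tissues make the recognition molecule C1q of the complement system. In bulk RNA from a sorted fraction, fewer cells of a type and less RNA per cell cannot be told apart, and a macrophage transcript may come from a macrophage in the fraction, from one attached to a sorted cell or from the endocrine cells.

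Promoters of 4 members are printed because H2-Aa with H2-Eb1 and C1qb with C1qc moved closely together in the libraries described below. RefSeq promoter windows (GRCm38.p6, 300 bases around the gene's start, most of them upstream) were at hand for 22 of the 32 members. In the first pair the capitals mark the X box (CTNGNAACT, or AGTTNCNAG on the other strand) and the Y box (CTGATTGG, or CCAATCAG on the other strand) of class II genes, and in the second pair the PU box (GAGGAA, or TTCCTC on the other strand) that PU.1 can bind. The letters of the X and Y boxes were chosen after these windows had been read, and both strands were searched.
H2-Aa, chr17:34287774-34288073, minus strand: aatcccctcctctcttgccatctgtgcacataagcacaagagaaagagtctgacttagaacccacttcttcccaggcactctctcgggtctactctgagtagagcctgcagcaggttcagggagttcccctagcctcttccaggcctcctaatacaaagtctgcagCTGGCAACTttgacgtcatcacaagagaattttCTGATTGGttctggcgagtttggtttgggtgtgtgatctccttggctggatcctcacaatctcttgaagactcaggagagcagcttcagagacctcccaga
H2-Eb1, chr17:34305617-34305916, plus strand: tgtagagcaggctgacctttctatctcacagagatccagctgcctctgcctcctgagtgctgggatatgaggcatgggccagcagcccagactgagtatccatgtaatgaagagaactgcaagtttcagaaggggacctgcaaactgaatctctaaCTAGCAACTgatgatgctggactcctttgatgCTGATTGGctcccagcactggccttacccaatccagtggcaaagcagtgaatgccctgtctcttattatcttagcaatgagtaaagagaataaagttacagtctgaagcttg
C1qb, chr4:136886151-136886450, minus strand: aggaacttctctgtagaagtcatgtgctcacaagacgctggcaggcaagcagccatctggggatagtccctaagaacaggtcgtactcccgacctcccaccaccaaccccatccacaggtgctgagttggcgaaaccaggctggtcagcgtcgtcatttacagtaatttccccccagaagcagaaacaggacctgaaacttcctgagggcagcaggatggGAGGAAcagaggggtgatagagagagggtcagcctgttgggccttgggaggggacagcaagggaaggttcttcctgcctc
C1qc, chr4:136892865-136893164, minus strand: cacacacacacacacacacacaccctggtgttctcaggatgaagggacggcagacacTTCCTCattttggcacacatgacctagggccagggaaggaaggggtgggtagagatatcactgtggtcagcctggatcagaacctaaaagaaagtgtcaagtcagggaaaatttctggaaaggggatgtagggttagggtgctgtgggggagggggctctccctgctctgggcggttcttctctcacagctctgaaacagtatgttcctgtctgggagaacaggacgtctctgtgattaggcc
In H2-Aa the X box began 84 bases and the Y box 51 bases upstream of the start, 33 bases apart, and in H2-Eb1 they were 32 bases apart. Of 32851 promoter windows, 4.1% held the X letters, 4.1% the Y letters and 0.164% both. Among the 22 members searched, the 2 with both were H2-Aa and H2-Eb1. The shorter PU box stood in 28.3% of all windows and in 15 of the 22 members. A member counted if any of its windows held the box, so a share per window and a count per gene are not like measures. These matches are descriptions of the letters and say nothing about binding in these cells.

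Libraries of the earlier sequencing run (20 libraries, replicate 1 of ZT4 to ZT20) held 16.1 to 28.6 M estimated counts, and those of the later run (28 libraries, both replicates of ZT0 and replicate 2 of the other times) held 37.4 to 69.9 M. Each condition had 5 libraries of the earlier and 7 of the later run. The sorted fractions carried their own hormone. Ins2 ranged from 145776 to 260890 CPM in DOX β and from 161841 to 297618 CPM in CTR β libraries. CPM here is the count per M counts of the library after scaling between libraries. Gcg ranged from 221654 to 445368 CPM in DOX α and from 241873 to 385004 CPM in CTR α libraries. Whole counts up to 20 were even in 99.7 to 100% of entries per library. Both reads of a fragment may thus have been counted, in which case fewer fragments than counts stand behind these totals and behind the minimum count of 10 in the filter on low counts. The reads carry no strand. Overlap with another coding gene concerned 5 members, namely Ciita (Dexi), Csf1r (Hmgxb3), Cd52 (Crybg2), Itgam (Gm49368) and Cx3cr1, whose annotated span crosses 5 genes. These are overlaps of whole gene spans, and overlap of exons was not examined. Reads from a stretch shared by exons of both genes could not be split between them by strand.

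Every member rose in the β fraction of DOX mice. All 32 members passed the filter on low counts, and all 32 were higher in DOX β than in CTR β cells, against a background of 23.8% of 15188 genes called higher (edgeR quasi-likelihood F test, Benjamini-Hochberg over all genes tested, threshold 0.05, time and run as terms). In the 12 CTR β libraries alone 26 members passed the filter, so the others entered this test through their counts in DOX β libraries. Log2 fold changes ran from 1.36 for C1qa to 2.68 for Mrc1 with a median of 2.22, beside a median of -0.01 over all genes tested, and adjusted p from 1.02e-05 to 0.00132. Added together, the members made up 225, 1339 and 3247 CPM (lowest, median and highest of 12 libraries) in DOX β and 75.5, 310 and 741 CPM in CTR β cells. The groups overlapped at their edges. The ZT0 replicate 2 library was the lowest of the DOX β libraries and lay below the CTR β median, and the ZT16 replicate 2 library was the highest. For each of the 32 members, 6 (Cx3cr1) to 11 (H2-Aa and H2-Ab1) of the 12 DOX β libraries lay above every CTR β library. No member separated the groups completely, as 1.29% of the genes tested did with DOX β higher. The heat map of all members by library shows this as bright columns at the left with 1 dim column among them.

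**Figure D1:**
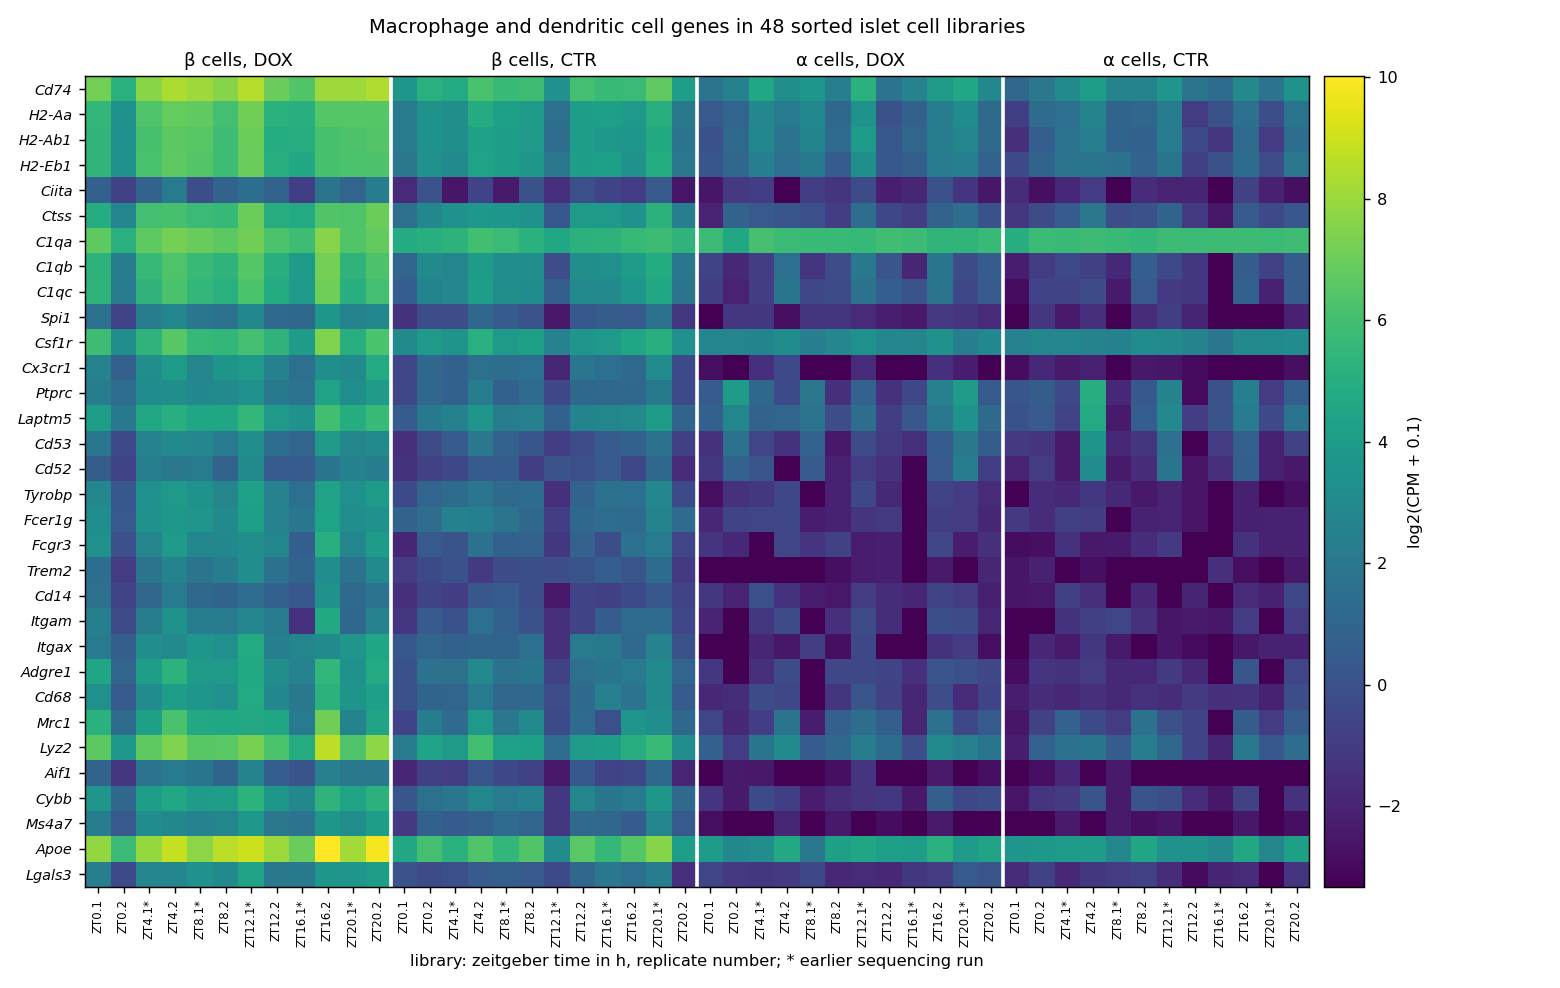
Levels of the 32 members (rows) in the 48 libraries (columns), as log2(CPM + 0.1) in colour, for DOX β, CTR β, DOX α and CTR α cells from left to right and by zeitgeber time within each, with an asterisk on libraries of the earlier run. The DOX β libraries are brightest apart from ZT0 replicate 2 (225 CPM in sum), C1qa keeps an even band through the α libraries, and Ptprc, Laptm5, Cd53 and Cd52 light up in a few α libraries.

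The ZT0 replicate 2 library of DOX β cells was low in myeloid genes and yet unlike CTR β libraries in 3 endocrine genes that were chosen after their values were seen. Gc, a vitamin D binding protein made mainly by α cells in the islet, had 314 CPM there, inside the DOX β range of 231 to 630 CPM and above the CTR β range of 30.2 to 105 CPM. Ucn3, a peptide of mature β cells, had 224 CPM there, inside the DOX β range of 197 to 553 CPM and below the CTR β range of 469 to 816 CPM. Mafa, a transcription factor of mature β cells, had 106 CPM, against at least 129 CPM in every CTR β library. Without this library all 32 members were still called higher, with a median log2 fold change of 2.33.

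MHC class II genes rose together. Cd74, which encodes the invariant chain, had 36.5, 234 and 375 CPM (lowest, median and highest library, as in all triplets of values that follow) in DOX β and 10.5, 52.2 and 108 CPM in CTR β cells. Only 2 DOX β libraries, ZT0 replicate 2 and ZT16 replicate 1, reached down into the CTR β range, and the log2 fold change was 2.22 ± 0.34 (SE, adjusted p = 2.71e-05). Ctss, which encodes cathepsin S, the protease that trims the invariant chain, had 6.68, 59.8 and 132 CPM in DOX β and 1.12, 11.6 and 38 CPM in CTR β cells. Its groups overlapped more, with 8 of 12 DOX β libraries above every CTR β library, and the log2 fold change was 2.37 ± 0.37 (adjusted p = 3.44e-05). The class II chains H2-Aa, H2-Ab1 and H2-Eb1 changed by 2.33, 2.35 and 2.25 on the log2 scale. Ciita, the transactivator itself, had no more than 4.83 CPM in any DOX β library and rose by 1.96 ± 0.45 (adjusted p = 0.00132), the highest adjusted p of the members. Dexi, the gene whose span overlaps that of Ciita, had 15 to 20.2 CPM in DOX β and 11.7 to 18.5 CPM in CTR β cells.

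The other genes of the class II pathway, a list of 23 genes chosen with earlier results of these data known, rose in part. Of 19 that passed the filter, 11 were called higher and 1 lower in DOX β cells, against 23.8% higher and 23.1% lower among all genes. The median log2 fold change of the 19 was 0.63, beside -0.01 over all genes tested. H2-DMa and H2-DMb1, chains of the peptide editor H2-DM, rose by 1.51 ± 0.15 and 2.12 ± 0.36, and Lgmn, an endopeptidase of lysosomes, by 1.34 ± 0.16. Ctsl, another lysosomal protease, did not pass, at -0.02 ± 0.07 (adjusted p = 0.838). Ctsh, a lysosomal aminopeptidase, averaged 16.6 ± 8.76 CPM in DOX β and 4.19 ± 2.01 CPM in CTR β cells (SD, n = 12 each) and rose by 2.02 ± 0.29 on the log2 scale (adjusted p = 1.01e-05). Cd86 and Cd40, which deliver and receive costimulatory signals, rose by 2.48 ± 0.43 and 1.80 ± 0.25. Rfx5, Rfxap, Rfxank, Nfya, Nfyb and Nfyc, whose products bind the X and Y boxes, did not pass the test, with log2 fold changes between -0.10 for Nfyc and 0.08 for Nfyb. Creb1, another factor of class II promoters, was lower by -0.43 ± 0.09 (adjusted p = 0.000534), with 40.1 ± 10.2 CPM in DOX β and 54 ± 8.18 CPM in CTR β cells (SD, n = 12 each).

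The 3 genes of complement C1q encode the chains of 1 molecule and lie side by side on chromosome 4 (GRCm38), C1qb at chr4:136880129-136886187, C1qc at chr4:136889804-136893065 and C1qa at chr4:136895917-136898803. C1qa had 34.9, 105 and 196 CPM in DOX β and 24.9, 39.6 and 63.6 CPM in CTR β cells. All but 2 DOX β libraries were above every CTR β library, and the log2 fold change of 1.36 ± 0.19 was the smallest of the members, with the lowest adjusted p (1.02e-05). C1qb had 4.96, 44.9 and 151 CPM in DOX β and 0.775, 9.17 and 29.1 CPM in CTR β cells, with 10 of 12 DOX β libraries above every CTR β library. Its log2 fold change was 2.52 ± 0.45 (adjusted p = 0.00011), and that of C1qc was 2.51 ± 0.43. C1qb and C1qc kept a nearly fixed proportion, with a C1qb to C1qc ratio of CPM between 0.97 and 1.22 in all 12 DOX β libraries. C1qa moved with C1qc across the DOX β libraries (Pearson's r of log2 CPM 0.98) but kept no fixed proportion to C1qb. Its ratio to C1qb had a median of 2.24 in DOX β and 4.17 in CTR β cells, and of 60.7 in DOX α and 102 in CTR α cells, where 1 CTR α library with C1qb at 0 gave no ratio. In α cells C1qa held 25.5, 51.9 and 68.2 CPM under DOX and 32.2, 54.6 and 58.4 CPM in CTR mice while C1qb stayed at or below 3.88 CPM. No other annotated gene overlaps C1qa.

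Among lineage regulators and growth factor receptors, Csf1r, the receptor for CSF1, had 9.7, 47.5 and 173 CPM in DOX β and 6.03, 14.2 and 35.6 CPM in CTR β cells. The highest DOX β library was again ZT16 replicate 2, and 9 of 12 DOX β libraries lay above every CTR β library, with a log2 fold change of 1.78 ± 0.33 (adjusted p = 0.000183). Hmgxb3, which overlaps Csf1r, had 21.1 to 42.2 CPM in DOX β and 22.1 to 48.8 CPM in CTR β cells. Spi1, the gene of PU.1, had 0.547, 4.35 and 13.2 CPM in DOX β and 0.0861, 1.07 and 3.04 CPM in CTR β cells. It too had 9 DOX β libraries above the CTR β range and rose by 2.15 ± 0.41 (adjusted p = 0.000211). Cx3cr1, the receptor for fractalkine, rose by 1.91 ± 0.41 and had the most overlap, with 6 of 12 DOX β libraries above every CTR β library.

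The pan-leukocyte genes mark blood cells of all kinds. Laptm5, a lysosomal membrane protein of blood cells, had 4.16, 24.8 and 64 CPM in DOX β and 1.35, 5.65 and 16.4 CPM in CTR β cells. Cd53, a tetraspanin, had 0.657, 6.32 and 14.1 CPM in DOX β and 0.253, 1.19 and 3.84 CPM in CTR β cells. In both genes the ZT0 replicate 2 library was the lowest and the ZT16 replicate 2 library the highest of DOX β cells, and the log2 fold change was 2.22, with an SE of 0.36 for Laptm5 and 0.38 for Cd53. Ptprc, the phosphatase known as CD45, rose by 2.06 ± 0.33 and Cd52, a small surface glycoprotein, by 1.93 ± 0.32.

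Fc receptors, and receptors and adaptors that signal through ITAM motifs, rose as well, and so did Cd14, which was listed with them. Tyrobp, the adaptor DAP12, had 1.13, 10.5 and 20.6 CPM in DOX β and 0.258, 2.4 and 7.13 CPM in CTR β cells. Here 7 of 12 DOX β libraries lay above every CTR β library, and the log2 fold change was 2.16 ± 0.41 (adjusted p = 0.000238). Fcgr3, a low-affinity receptor for IgG, had 0.839, 7.25 and 32.5 CPM in DOX β and 0.169, 1.46 and 4.43 CPM in CTR β cells. With 10 of 12 DOX β libraries above the CTR β range it rose by 2.63 ± 0.47 (adjusted p = 0.000125), next to Mrc1 among the members. Trem2, a lipid receptor that signals through Tyrobp, rose by 2.31 ± 0.37, Cd14, the co-receptor for lipopolysaccharide, by 2.12 ± 0.38, and Fcer1g, the common γ chain of Fc receptors, by 1.85 ± 0.36.

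Both integrin chains rose. Itgax, the chain CD11c that dendritic cells and islet macrophages carry, had 1.57, 8.63 and 28 CPM in DOX β and 0.258, 1.9 and 5.83 CPM in CTR β cells, with 9 of 12 DOX β libraries above every CTR β library. Its log2 fold change was 2.01 ± 0.37 (adjusted p = 0.000167). Itgam, the chain CD11b, had 0.278, 4.78 and 26.9 CPM in DOX β and 0.258, 1.12 and 2.81 CPM in CTR β cells. Its lowest DOX β library was ZT16 replicate 1 and not ZT0 replicate 2, and the log2 fold change was 2.25 ± 0.49 (adjusted p = 0.000856). The tables hold 2 rows named Itgam whose values move together, and the first row is given here.

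Macrophage lysosome, surface and oxidase genes held the largest rise. Lyz2, lysozyme of myeloid cells, had 13.6, 99.9 and 419 CPM in DOX β and 2.67, 18.1 and 63.1 CPM in CTR β cells. The ZT16 replicate 2 library stood far above the other DOX β libraries, 10 of 12 were above every CTR β library, and the log2 fold change was 2.57 ± 0.45 (adjusted p = 0.000101). Mrc1, the mannose receptor, had 2.48, 24.1 and 137 CPM in DOX β and 0.534, 3.11 and 15 CPM in CTR β cells. Again 1 library, ZT16 replicate 2, was the highest, and the log2 fold change was 2.68 ± 0.56 (adjusted p = 0.000537), the largest and the one with the largest SE. Adgre1, the macrophage surface protein of the adhesion GPCR family, rose by 2.54 ± 0.41, Cd68, a glycoprotein of lysosomes, by 2.34 ± 0.40, and Cybb, the catalytic subunit of the phagocyte oxidase, by 2.19 ± 0.39. Aif1, a cytoskeletal protein of macrophages, rose by 2.19 ± 0.42 and Ms4a7, a membrane protein of macrophages, by 2.06 ± 0.36.

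Apoe and Lgals3 are made by many cell types besides macrophages. Apoe, the lipid carrier apolipoprotein E, had 53.8, 275 and 1035 CPM in DOX β and 8.61, 55.8 and 191 CPM in CTR β cells. It was high in 2 later-run libraries, ZT16 replicate 2 and ZT20 replicate 2, 10 of 12 DOX β libraries were above the CTR β range, and the log2 fold change was 2.49 ± 0.42 (adjusted p = 6.56e-05). Lgals3, the galactoside-binding lectin galectin-3, rose by 2.41 ± 0.39. Per length of transcript, in deposited RPKM, the members of DOX β cells were ordered from Apoe (189 ± 155, SD, n = 12), Cd74 (159 ± 81.6), C1qa (104 ± 46.5) and Lyz2 (102 ± 91.9) down to Ptprc (0.495 ± 0.322) and Ciita (0.417 ± 0.272). The leading 4 did not differ from their neighbours in the order beyond these SDs.

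**Figure D2:**
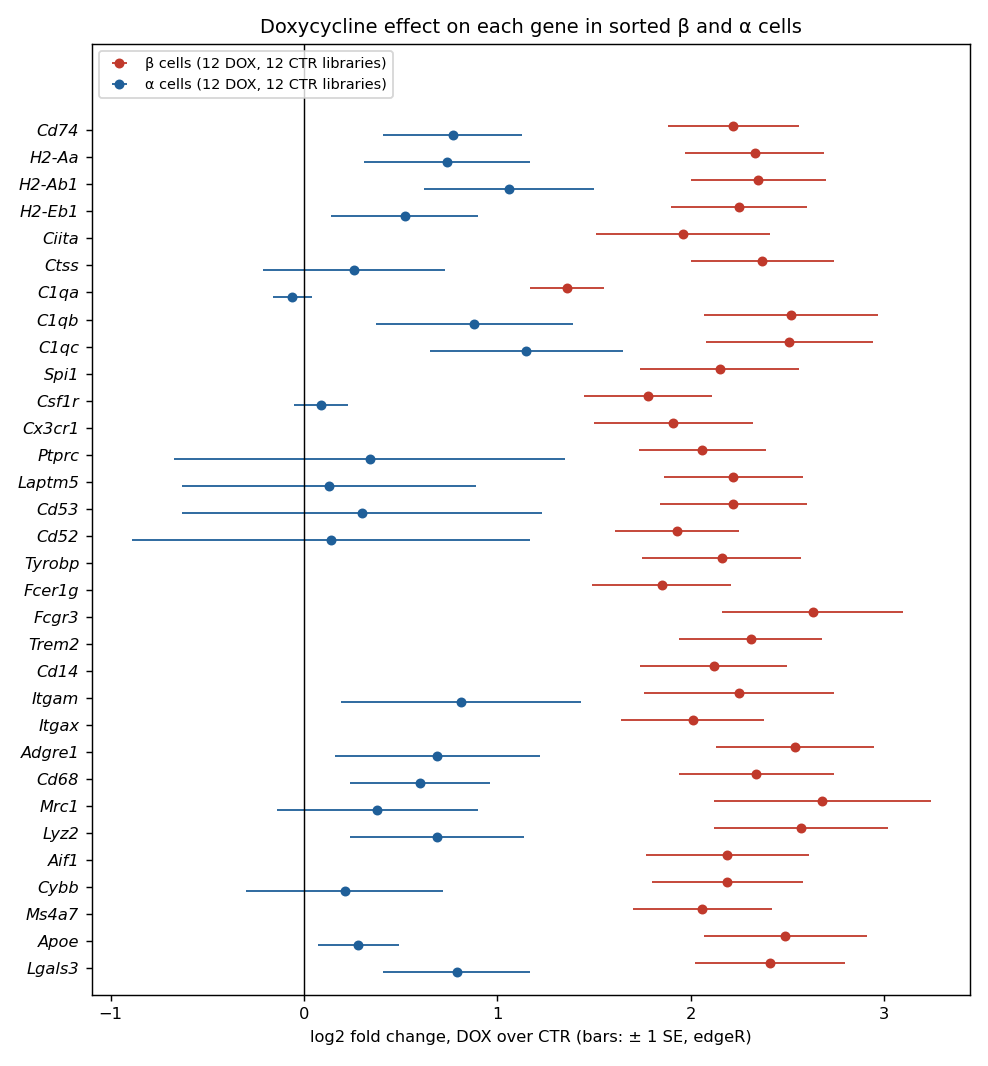
Log2 fold changes of the members, DOX over CTR, with bars of 1 SE from edgeR, in β cells (red, 12 DOX and 12 CTR libraries) and α cells (blue, the same numbers; only the 21 members that passed the filter there). Red points lie between 1.36 (C1qa) and 2.68 (Mrc1), and blue points between -0.06 (C1qa) and 1.15 (C1qc).

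Within each run the rise in β cells had the same direction for all 32 members. In the earlier run alone (5 DOX β and 5 CTR β libraries) 27 members were called higher, against 17.7% of all genes, with a median of 2.12, and Cx3cr1, Tyrobp, Fcer1g, Itgam and Cd68 did not pass, at log2 fold changes of 1.65, 1.93, 1.63, 1.32 and 1.89. In the later run alone (7 and 7 libraries) all 32 were called, against 13.9% of all genes, with a median of 2.24. The change in doxycycline response from run to run, later minus earlier, was called for 0 of 32 members (backgrounds 0.00658% higher and 0.0395% lower), also at an unadjusted p under 0.05, with a median of 0.08. By time, the DOX mean of log2 CPM was above the CTR mean at all 6 times for all 32 members. The share of all genes with this pattern was not counted, and the members moved together across β libraries. The median difference over the members was 1.52 at ZT0, 2.34 at ZT4, 2.06 at ZT8, 3.32 at ZT12, 1.79 at ZT16 and 2.54 at ZT20, each resting on 2 libraries a group.

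Other immune lists, chosen with earlier results known, were read in the same fit. Of 28 further macrophage genes that passed the filter, 23 were called higher and 2 lower in DOX β cells, against 23.8% and 23.1% of all genes. The median log2 fold change of the 28 was 2.35. In the test of the β minus α difference described below, 4 of 28 genes of this list were called higher and 2 lower, against 12.7% and 12.8% of all genes. Ms4a6b and Cd300a, membrane proteins of myeloid cells, rose by 2.68 ± 0.39 and 2.50 ± 0.38. Sirpa and P2ry6 were lower by -0.55 ± 0.08 and -0.77 ± 0.11, and both were also higher in β than in α cells of CTR mice, by 2.35 ± 0.07 and 7.14 ± 0.24. Of 12 dendritic cell genes only 6 passed the filter, 3 called higher and 1, Sirpa, lower, against 23.8% higher and 23.1% lower among all genes. Flt3, Xcr1, Clec9a, Cd209a, Ccr7 and Batf3, which define dendritic cells or their subsets, did not pass the filter, and Flt3 had 0, 0.206 and 1.75 CPM in DOX β and 0, 0 and 0.174 CPM in CTR β cells. Ccr7 was uneven, at 1.64 ± 3.58 CPM in DOX β and 0.103 ± 0.142 CPM in CTR β cells (SD, n = 12 each). Its highest library had 12.7 CPM in DOX β and 0.516 CPM in CTR β cells. Xcr1, Clec9a, Cd209a and Batf3 reached at most 0.717 CPM in DOX β cells. Cd24a, Irf4 and Siglech, the 3 called higher, rose by 1.59, 1.86 and 1.82. Zbtb46 (0.24 ± 0.40, adjusted p = 0.647) and Itgae (1.04 ± 0.45, adjusted p = 0.0642) were tested and not called.

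Genes of other cell types that a sorted fraction could hold were counted beside these results. Of 12 T and NK cell genes 2 passed the filter in β cells, and both were called higher, Cd4 by 2.69 ± 0.56 and Il7r by 1.38 ± 0.43. The list summed to 1.53, 3.8 and 9.66 CPM in DOX β and 0.174, 1.06 and 7.58 CPM in CTR β cells, and the T cell receptor gene Cd3e was at 0 in 6 of 12 libraries of either group. Of B cell genes, 0 of 3 were higher and Cd79a was lower by -1.44 ± 0.26, with list sums of 1.7 to 8.12 CPM in DOX β and 5.48 to 24.8 CPM in CTR β cells. Of 2 neutrophil and mast cell genes tested, Csf3r, the receptor for granulocyte colony-stimulating factor, rose by 2.88 ± 0.50, while S100a8, S100a9 and Ly6g of neutrophils were at 0 in every DOX β library. Col1a1, Col1a2, Col3a1 and Pdgfrb of stellate cells and fibroblasts were 4 of 8 genes called higher, their list summing to between 1.12 and 383 CPM in DOX β and between 0.435 and 53.6 CPM in CTR β cells. The highest of these sums was in ZT4 replicate 1, not in the library with the most myeloid RNA. In endothelial genes 2 of 5, in acinar genes 1 of 10 and in ductal genes 2 of 6 were called higher and 0, 0 and 1 lower, against 23.8% higher and 23.1% lower among all genes. Acinar genes summed to 11.1, 14.4 and 5099 CPM in DOX β and 3.7, 43.3 and 267 CPM in CTR β cells, and 1 library, ZT8 replicate 2, held the highest DOX β sum. In the endocrine lists, 4 of 5 α cell genes were called higher and 0 lower, with Ttr, the carrier transthyretin, at 2.05 ± 0.12 and Gc at 2.60 ± 0.14. The α cell list summed to 1432, 2389 and 3657 CPM in DOX β and 357, 723 and 859 CPM in CTR β cells, which did not overlap. Of 9 β cell genes 2 were called higher and 5 lower, among them Slc30a8, the zinc transporter of insulin granules, at -0.95 ± 0.11. The part of these cell types in the rise of the members was not tested.

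Ligands that act on macrophages moved both ways in DOX β cells. Of 8 chemokines and growth factors that passed the filter, 5 were called higher and 2 lower, against 23.8% higher and 23.1% lower among all genes. The count called lower was near that share. Csf1, the ligand of Csf1r, averaged 9.23 ± 2.77 CPM in DOX β and 17 ± 3.42 CPM in CTR β cells (SD, n = 12 each) and was lower by -0.87 ± 0.10 on the log2 scale (adjusted p = 1.09e-06). Cx3cl1, the ligand of Cx3cr1, averaged 7.82 ± 2.39 CPM in DOX β and 16.4 ± 4.97 CPM in CTR β cells and was lower by -1.01 ± 0.15 (adjusted p = 1.31e-05). Tgfb1 rose by 2.22 ± 0.33, Cxcl16 by 1.52 ± 0.26, Il1b by 1.68 ± 0.41, Ccl2 by 2.02 ± 0.64 and Cxcl10 by 2.59 ± 0.76.

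In α cells no member passed the test. Of 21 members that passed the filter, 0 were called in DOX against CTR α cells, where 0.0804% of 14932 genes were called higher and 0.0469% lower, and 4 had an unadjusted p under 0.05. DESeq2 called 0 as well. The median log2 fold change was 0.52, from -0.06 ± 0.10 for C1qa to 1.15 ± 0.50 for C1qc. This median rested on single libraries, at 0.30 without DOX α ZT16 replicate 2 and 0.80 without CTR α ZT12 replicate 1. Cd74 had 3.34, 8.63 and 36.6 CPM in DOX α and 1.99, 6.24 and 17.3 CPM in CTR α cells, groups that overlapped over most of their range (0.77 ± 0.36, adjusted p = 0.606). The sum of all members was 84.7, 110 and 184 CPM in DOX α and 58.2, 99.5 and 206 CPM in CTR α cells, of which C1qa alone had a median of 51.9 CPM in DOX α and 54.6 CPM in CTR α cells. A total of 11 members fell below the filter in α cells, among them Spi1, Tyrobp, Trem2, Itgax, Aif1 and Ms4a7, and Ms4a7 was at 0 in 7 of 12 DOX α and 6 of 12 CTR α libraries.

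Each run was also read alone in α cells. In the earlier run 3 of 14 members tested were called higher in DOX α cells, against 0.864% of all genes, namely Cd74 (1.66 ± 0.21, adjusted p = 0.00144), H2-Aa (1.69 ± 0.29, adjusted p = 0.0165) and H2-Ab1 (2.05 ± 0.30, adjusted p = 0.0046). H2-Eb1 (1.13 ± 0.30, adjusted p = 0.146) and Ctss (0.77 ± 0.40, adjusted p = 0.567) did not pass. In the later run alone Cd74, H2-Aa and H2-Ab1 were at 0.09 ± 0.25, 0.15 ± 0.35 and 0.44 ± 0.37, and 0 members were called by edgeR, as were 0 of 15153 genes in all, with 1 member at an unadjusted p under 0.05. The difference between the runs in α cells was not tested.

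The doxycycline effect was larger in β than in α cells for 14 of 32 members in the test of the difference itself, against 12.7% of 16207 genes, and smaller for 0. The 11 members below the filter in α cells entered this test through their counts in β cells. Of the 21 that passed the filter in α cells 13 were called, with differences of log2 fold changes, β minus α, from 1.33 for H2-Ab1 to 2.22 for Mrc1 and a median of 1.72. By role, it passed for Cd74 (1.46 ± 0.52), H2-Aa (1.62 ± 0.57), H2-Eb1 (1.75 ± 0.53) and Ctss (2.22 ± 0.61) of class II, for C1qa (1.40 ± 0.23) and for Csf1r (1.68 ± 0.38). It also passed for Adgre1, Cd68, Mrc1, Lyz2 and Cybb (1.71 to 2.22), and for Apoe (2.20 ± 0.49) and Lgals3 (1.62 ± 0.57). Trem2 was the 1 called member below the filter in α cells, where it was at 0 in 7 of 12 DOX α and 6 of 12 CTR α libraries and reached at most 0.167 CPM in DOX α and 0.245 CPM in CTR α cells. Its difference of 2.51 ± 0.88 rests on these near-zero counts. Adgre1, Cd68, Cybb and Lgals3 passed the filter but were low in α cells too, with CTR α medians of 0.242, 0.236, 0.292 and 0.225 CPM. The pan-leukocyte genes did not pass, with differences of 1.72 to 2.15 and SEs of 0.83 (Laptm5) to 1.07 (Cd52). With same-numbered DOX and CTR libraries of a time as a block within each cell type, 10 members passed, against 11.7% of all genes called higher. Trem2, Adgre1, Cd68 and Lgals3 then did not pass. Neither fit of this difference paired β with α libraries. The number called rested on single libraries. Leaving out 1 library at a time gave 7 to 17 members, with 7 without CTR α ZT12 replicate 1, 8 without DOX β ZT12 replicate 1 and without DOX β ZT16 replicate 2, and 9 without CTR α ZT0 replicate 2, CTR α ZT16 replicate 2, CTR α ZT20 replicate 2 or DOX β ZT0 replicate 1.

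The pan-leukocyte genes were high in a few α libraries that also carried T cell RNA. Cd3e was above 2 CPM in 4 α libraries, with 2.61 CPM in DOX ZT0 replicate 2, 5.92 CPM in DOX ZT20 replicate 1, 9.96 CPM in CTR ZT4 replicate 2 and 3.05 CPM in CTR ZT12 replicate 1. Ptprc had 16.2, 16.2, 32.2 and 6.18 CPM in these libraries, beside a median of 1.52 CPM in DOX α and 1.12 CPM in CTR α cells. Cd74 had 5.68, 25.6, 17.3 and 12.1 CPM in the same 4 libraries, beside medians of 8.63 CPM in DOX α and 6.24 CPM in CTR α cells, so it was high in 3 of them and not in DOX ZT0 replicate 2. Without these 4 libraries, a choice made after seeing the data, 6 of 32 members passed the β minus α test, against 10.4% of 16412 genes called higher.

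**Figure D3:**
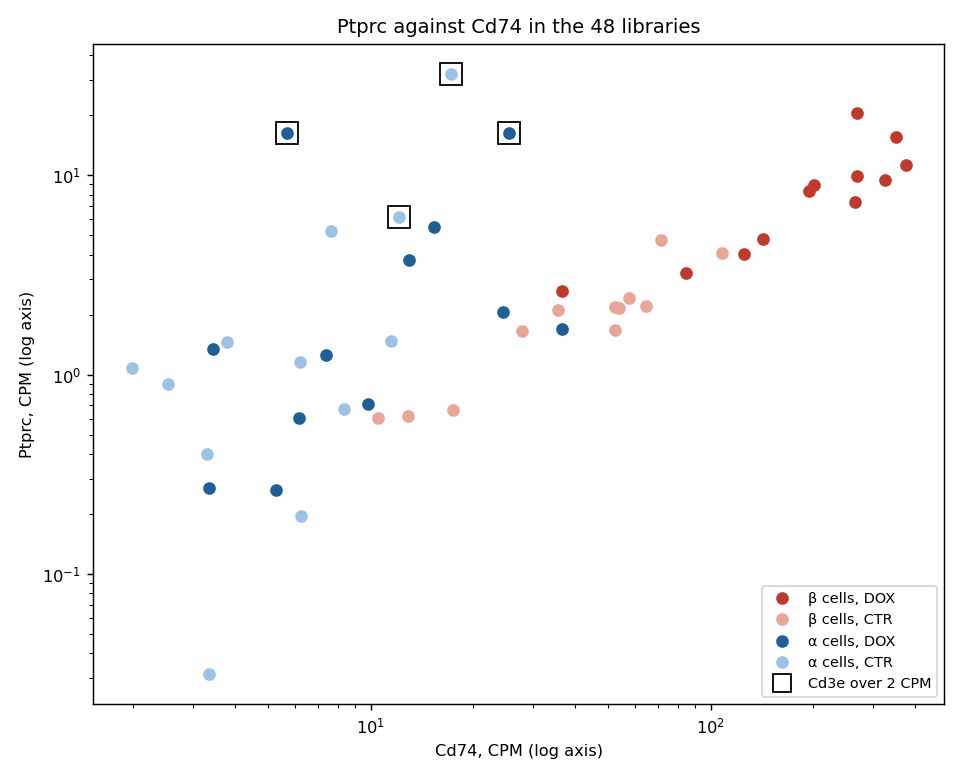
Ptprc against Cd74 in CPM on log axes, 1 point per library (48 libraries), coloured by condition, with a square around the 4 α libraries above 2 CPM of Cd3e. β libraries run along 1 diagonal band from CTR to DOX, and the squared α libraries lie above it with 6.18 to 32.2 CPM of Ptprc.

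Myeloid RNA was higher in β than in α fractions in both treatments. Of the 21 members that passed the filter in α cells, all 21 were called higher in β cells of DOX mice, against 35.6% of 15370 genes, with log2 fold changes from 1.07 ± 0.19 (C1qa) to 5.64 ± 0.42 (Ctss) and a median of 4.24. In CTR mice 16 of these 21 were called higher, against 34.2% of 14945 genes, with a median of 2.59 and C1qb highest at 3.93. The other 11 members entered only through their counts in β cells, and with them 32 were called higher in DOX mice and 25 of 30 tested in CTR mice, where Cx3cr1 and Aif1 did not pass the filter. Their fold changes rest on near-zero α counts and are no exact values. Some of the 21 were low in α cells too. In CTR α cells C1qb, Cd68 and Itgam had medians of 0.506, 0.236 and 0.181 CPM, so their fold changes are no exact values either. Ms4a7, at 0 in 7 of 12 DOX α libraries, was fitted at 7.34 in DOX mice, at 10.47 in the earlier run alone and at 6.85 in the later run alone. C1qa was the 1 member called lower in β cells of CTR mice, where 37.3% of all genes were lower, at -0.36 ± 0.11 (adjusted p = 0.00686). Ptprc (-0.26 ± 0.65), Cd52 (0.15 ± 0.70), Cd53 (0.42 ± 0.67) and Laptm5 (1.09 ± 0.58), the whole pan-leukocyte group, did not pass. In the earlier run alone all 32 members were higher in β cells of DOX mice (background 30.3%) and 20 in CTR mice (30%, with C1qa no longer called lower), and in the later run alone 31 (31.4%, without Ptprc) and 26 (31.6%). Without the 4 Cd3e-high α libraries 29 of 31 members tested were called higher in CTR mice, against 33.5% of all genes. The comparisons of β with α cells and of DOX with CTR cells share libraries, so their values are set side by side and not correlated.

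In β cells no member passed a test for sequencing run or time of day. Between the later and the earlier run 0 of 32 members were called in β cells by edgeR, where 11.3% of all genes were higher and 10.1% lower in the later run, and 1 had an unadjusted p under 0.05. Leaving out 1 library at a time gave 0 or 1 members, with 1 higher without CTR β ZT20 replicate 1 and 1 lower without DOX β ZT16 replicate 1. In α cells Apoe was the 1 of 21 members called, higher in the later run by 0.90 ± 0.24 (adjusted p = 0.00953) where 11.4% of all genes were higher, and leaving out 1 library gave 1 to 4 members, with 4 without DOX α ZT12 replicate 1 or CTR α ZT12 replicate 2 and 2 without CTR α ZT0 replicate 2 or either CTR α library of ZT4. A 24 h rhythm was called for 0 members in any condition. The members tested and the background of genes called rhythmic were 32 and 11.6% in DOX β, 26 and 2.17% in CTR β, 10 and 2.82% in DOX α and 7 and 4.49% in CTR α cells. At an unadjusted p under 0.05 only Laptm5 and Ptprc passed, both in DOX α cells, peaking at 21.6 h with amplitudes of 1.15 and 1.86 (adjusted p = 0.178 and 0.193), and both had their 2 highest DOX α values in the Cd3e-high libraries. The lowest adjusted p in DOX β cells was 0.487, for Apoe with an amplitude of 0.58.

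**Figure D4:**
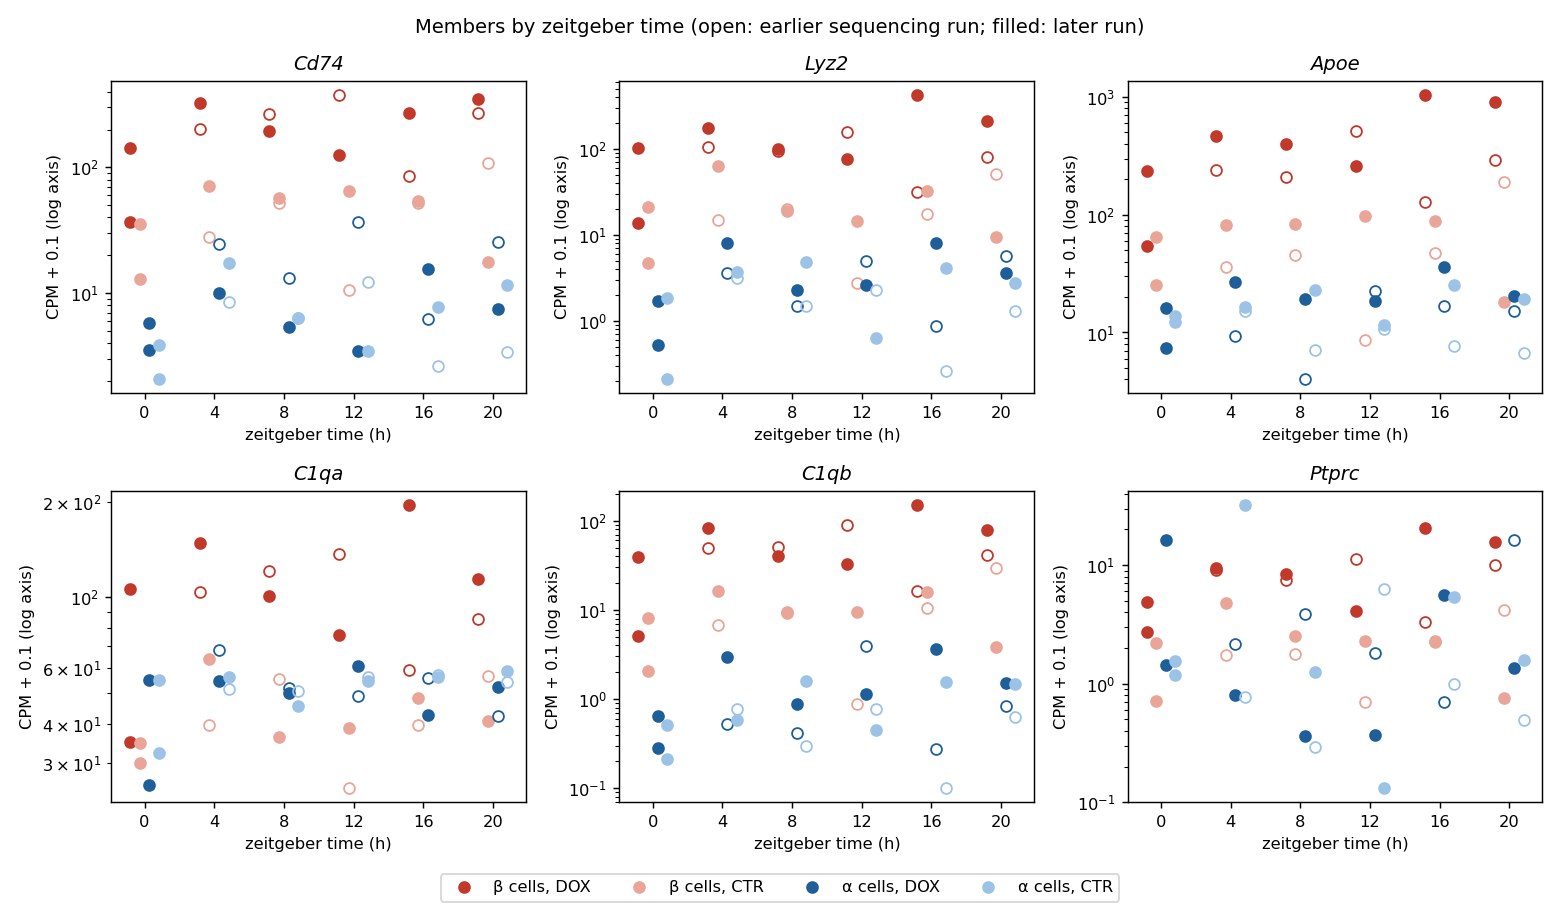
CPM + 0.1 (log axes) of Cd74, Lyz2, Apoe, C1qa, C1qb and Ptprc against zeitgeber time in h, 1 point per library, by condition; open points are the earlier run and filled points the later run. DOX β points (dark red) lie above CTR β points (light red) at most times with no common daily course, C1qa stays between 25.5 and 68.2 CPM in α cells, and single α libraries reach 16.2 to 32.2 CPM of Ptprc.

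In β cells the members moved up and down together across libraries of one condition, and in α cells less so. Over the 496 pairs of members, Pearson's r of log2 CPM across the 12 libraries had a median of 0.90 in DOX β and 0.85 in CTR β cells, and of 0.30 in DOX α and 0.41 in CTR α cells. Pairs with r above 0.9 numbered 241 in DOX β, 146 in CTR β, 15 in DOX α and 13 in CTR α cells, which is 48.6%, 29.4%, 3.02% and 2.62% of the pairs. Over all pairs of the other genes tested the median r was between 0.00 and 0.01 in the 4 conditions, and 0.0799%, 0.0865%, 0.076% and 0.0375% of pairs were above 0.9. The lowest r between members was 0.35 in DOX β, 0.07 in CTR β, -0.69 in DOX α and -0.58 in CTR α cells. All pairs of a condition share the same libraries, with their depth and run. Counts were also lower in α cells. There 14 members were at 0 in at least 1 DOX α library and 19 in at least 1 CTR α library, against 0 in DOX β and CTR β cells. How far low counts lowered r in α cells was not tested. In DOX β cells the closest pairs were H2-Aa with H2-Ab1 and C1qb with C1qc (both rounding to r = 1), and the least alike was Mrc1 with Itgax (r = 0.35). Mrc1 was most like Csf1r (r = 0.95) and Itgax most like Lgals3 (r = 0.93). Itgax was the least alike partner of Csf1r (0.54), Cd14 (0.46), Itgam (0.39), Fcgr3 (0.57) and Lyz2 (0.64), and Mrc1 that of Cd74 (0.68), Ctss (0.58), Cd52 (0.44) and Lgals3 (0.57). In α cells blocks remained. Cd74 with H2-Eb1 reached r = 0.98 and Ptprc with Laptm5 r = 0.96 in DOX α cells, while C1qa with Ptprc was at r = -0.69.

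**Figure D5:**
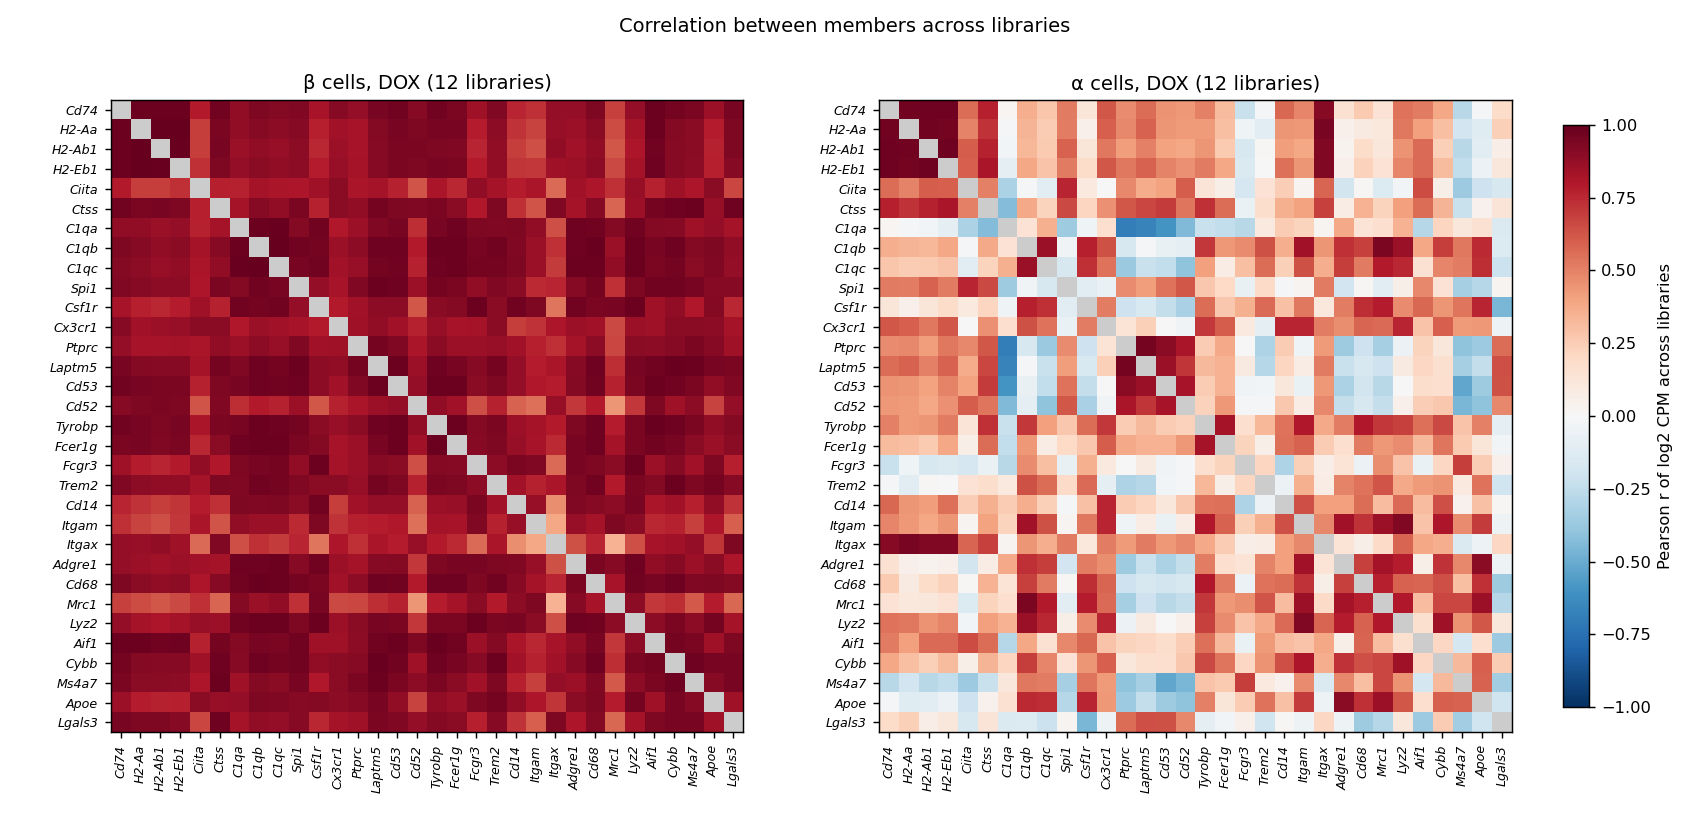
Pearson's r between each pair of members across the 12 libraries of DOX β cells (left) and of DOX α cells (right), on log2 CPM, from -1 (blue) to 1 (red). The left panel is red throughout (median r = 0.90) with paler lines at Mrc1, Itgax and Cd52, and the right panel (median r = 0.30) keeps small blocks for class II genes and for Ptprc, Laptm5, Cd53 and Cd52. Of the members, 14 were at 0 in at least 1 DOX α library and 0 in any DOX β library.

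Cd74 was correlated with 9 members in each condition, 36 correlations in all, with permutation p (100000 resamples) adjusted over the 36 by Benjamini-Hochberg. In DOX β cells (n = 12) it followed H2-Ab1 with r = 0.98 and rho = 0.93 (permutation p = 1e-05, the smallest these permutations can give; adjusted p = 7.2e-05), and r was 0.95 without the 2 libraries farthest from its median. Tyrobp gave r = 0.97 and rho = 0.93 (permutation p = 2e-05, adjusted p = 0.0001), and r = 0.87 without those 2 libraries. Csf1r gave r = 0.83 and rho = 0.76 (permutation p = 0.0011, adjusted p = 0.0024), but r = 0.42 without them, and Itgam r = 0.73 and rho = 0.77 (permutation p = 0.01, adjusted p = 0.017), but r = 0.31. These relations, and those of C1qa, Lyz2 and Apoe with r of 0.59, 0.55 and 0.59 without the 2 libraries, rested on those 2 libraries. Within the later run (7 libraries) Csf1r had r = 0.91 and Itgam r = 0.85. In CTR β cells Ptprc followed Cd74 with r = 0.94 and rho = 0.95 (permutation p = 2e-05, adjusted p = 0.0001) and r = 0.89 without the 2 farthest libraries, whereas in DOX α cells r was 0.47 and rho 0.55 (permutation p = 0.12, adjusted p = 0.15). C1qa did not pass with Cd74 in DOX α cells, at r = 0.02 and rho = -0.32 (permutation p = 0.97, adjusted p = 0.97).

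Cd74 kept a narrower proportion to H2-Ab1 than to Lyz2. Cd74 to H2-Ab1, both of class II, stayed between 2.72 and 4.12 in CPM over the 12 DOX β libraries. Cd74 to Lyz2 ranged from 0.646 to 3.36, with a median of 1.66 in the later-run and 2.74 in the earlier-run libraries of DOX β cells. The lowest value belonged to ZT16 replicate 2, the library highest in Lyz2, Mrc1 and Apoe, and Apoe to Cd74 was highest in the same library, at 3.83. CTR β libraries had Cd74 to Lyz2 ratios of 1.14 to 4.46, which enclose nearly all of the DOX β values. These ratios by run were not tested.

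Genes outside the set were ranked by their likeness to the mean log2 CPM of the members, over 48 libraries after subtracting the mean of each condition in each run. Only genes whose mean CPM in DOX β cells reached 1 entered, a rule that favours genes high there. Of these 12307 genes, 27 had r above 0.8. Mpeg1, the pore protein of macrophage phagosomes, was the most alike (r = 0.90), and averaged 57.2 ± 37.4 CPM in DOX β and 13.5 ± 9.7 CPM in CTR β cells (SD, n = 12 each). Tgfbi, Ms4a6c and Ctsc followed at 0.89, Themis2 at 0.88, Ctsh at 0.86, Pld4 at 0.85, Cyba and Stab1 at 0.84 and Xdh, Pltp and Tlr7 at 0.83. The likeness is a description over libraries that share depth and run.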

How the data were processed

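RNA was measured by unstranded poly(A) sequencing in 48 libraries, 12 each of DOX β, CTR β, DOX α and CTR α cells. Reads were aligned with STAR to GRCm38 after demultiplexing with bcl2fastq, per the submitters' processing notes, and the program that counted them is not given in the sources used here. The deposited tables hold estimated counts per gene, which were rounded to whole numbers, and RPKM made by the authors, which equal count per length and library total (largest relative difference 9.6e-10). RPKM served only to order genes by level. CPM is the count per M of the library's total after TMM scaling over all 48 libraries. Library totals ran from 16.1 to 69.9 M, and every value column was mapped to a sample.

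Counts were fitted over all genes with edgeR 4.0.16 in R 4.3.3 (limma 3.58.1), with TMM scaling, filterByExpr by group (count minimum 10, total minimum 15), the quasi-likelihood F test and Benjamini-Hochberg adjustment at 0.05. Terms were time (6 levels) and run; rhythm was tested as a 24 h cosine and sine with run. Correlations used log2 CPM with a prior count of 2. The members and lists were chosen with earlier results of these data known. Full values were given, in each role group, for the member with the highest mean CPM in DOX β cells and the one with the largest change in β cells, and of each other list for up to 4 genes with the lowest p, with further genes added for their role. Scripts were tested on simulated data. Alternatives were DESeq2 1.42.0, RLE scaling, no filter, no run term, each run alone, time alone without ZT0, a replicate block, leaving out each library, and, chosen after seeing the data, leaving out α libraries above 2 CPM of Cd3e.

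Same-numbered libraries of a time and treatment deviated together in DOX β and DOX α cells (r 0.18 to 0.48, above 0.1 at all 6 times), at 5 of 6 times in CTR β and CTR α cells (lowest 0.04), and at 3 (β) and 4 (α) of 6 times between DOX and CTR cells. Replicates of a group differed by more than sampling noise. Fcgr3 and the Ms4a and H2 genes have close copies, and how shared reads were split is not given.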

Additional observations from a re-analysis of the deposited data

Results flagged for a closer look

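For 14 members the doxycycline effect differed between the sorted fractions in the test of the difference itself (edgeR, interaction of treatment and cell type, adjusted p under 0.05 over 16207 genes, of which 12.7% were called higher). The log2 fold change in β cells minus that in α cells was 1.46 for Cd74, 1.62 for H2-Aa, 1.75 for H2-Eb1 and 2.22 for Ctss among class II genes. It was 1.40 for C1qa, 1.68 for Csf1r and 2.51 for Trem2. Among macrophage lysosome, surface and oxidase genes it was 1.84 for Adgre1, 1.71 for Cd68, 2.22 for Mrc1, 1.88 for Lyz2 and 2.00 for Cybb, and among broadly expressed genes 2.20 for Apoe and 1.62 for Lgals3. Trem2 was below the filter in α cells and near 0 there. With the replicate block 10 members passed, without Trem2, Adgre1, Cd68 and Lgals3, against 11.7% of all genes called higher. That block paired DOX with CTR libraries within each cell type and not β with α libraries. Leaving out 1 library at a time gave 7 to 17 members, and 6 passed without the 4 Cd3e-high α libraries, where 10.4% of all genes were called higher. The markers of T cells that moved with single α libraries stand beside this result above, and their part in it was not tested.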

How the results depend on the processing

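All 32 members were called higher in DOX β against CTR β cells under RLE scaling, no filter, the replicate block, no run term, the later run alone, DESeq2, without ZT0 and without each library in turn (32 to 32), and 27 in the earlier run alone. In α cells 0 were called under these settings (0 to 0 without each library) except for 3 in the earlier run alone. The β minus α difference was called for 14 members, for 14 with RLE and 15 with no filter. It was called for 10 with the replicate block within each cell type (11.7% of all genes), 6 without the Cd3e-high α libraries (10.4%) and 7 to 17 without each library. In CTR mice 25 members were higher in β than in α cells and 25 to 27 without each library, and the 1 lower member, C1qa, became 0 in the earlier run alone, where the cause was not tested. In DOX mice the count was 31 to 32 without each library. The run term in β cells was called for 0 to 1 members higher and 0 to 1 lower, that in α cells for 1 to 4 higher, and rhythm for 0 in every setting. No value changed its direction past the threshold. The numbers pair the libraries of DOX β and DOX α cells, where the replicate block kept 32 calls. Same-numbered CTR β and CTR α libraries had r above 0.1 at 5 of 6 times (lowest 0.04), short of every time, and the replicate block gave 26 higher and 1 lower for β against α cells of CTR mice. Of the 36 correlations with Cd74, 10 no longer passed without the 2 farthest libraries. In α cells 11 members were under the filter, and with no filter 0 were called there.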
